A study of Mus musculus with 12 samples.

Results

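The transcripts of 54 mitosis, spindle, and kinetochore genes were followed in C2C12GFP cells, a line of mouse myoblasts that carries green fluorescent protein, during differentiation into myotubes on 4 plate surfaces. The genes were taken from a fixed list of mitotic regulators by their symbols, and each symbol matched 1 row among the 55536 mouse genes of the deposited read count table. The list was chosen with earlier results of these data known, so the shares of all genes set beside its counts are descriptions. The surfaces were bare plastic (uncoated, the control), Collagen I, fibronectin, and Geltrex™, a basement membrane matrix laid down as a thin gel, and RNA of 3 samples was sequenced for each surface. The question put to the data was how far the plate coating changed the mitotic transcripts of a culture that was meant to leave the cell cycle. All 12 samples came from the same cell line and carried the same reporter, and no genetic change or drug separated the groups. Neither the labels nor the methods say whether samples of a group were separate cultures, so the p-values below measure the spread between these samples, which may be technical. The day on which RNA was taken is not given in the sources used here.

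Mitosis is driven by cyclin-dependent kinase 1 with its A- and B-type cyclins, which switch on a set of further kinases, build the spindle, and attach chromosomes to it through kinetochores. The anaphase-promoting complex then destroys cyclin B and securin so that sister chromatids part and the cell divides. The genes for these proteins are transcribed mainly in G2 and M phase and are kept silent in resting cells by the DREAM complex, and myoblasts stop transcribing them when they leave the cell cycle and fuse. Mononucleated reserve cells remain in differentiated C2C12 cultures. In RNA from whole cultures, a smaller share of dividing cells and less mitotic RNA per cell cannot be told apart.

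All 54 genes were higher on fibronectin and on Geltrex™ than on uncoated plates, and none passed the test on Collagen I. Read counts were scaled to the library total as CPM, with a TMM factor that sets the bulk of genes equal between libraries, and tested with edgeR's quasi-likelihood model, in which a gene was called at a Benjamini-Hochberg adjusted p of at most 0.05 over the 14499 genes tested. On fibronectin, 54 of 54 mitotic genes were called higher, where 17.1% of all genes tested were. The median log2 fold change was 1.54, a 2.90-fold rise, and the values ran from 0.56 for *Smc4* to 2.11 for *Knl1*, while the median of all genes tested was −0.02. At least 2-fold rises were found for 50 of the 54 genes, against 2.42% of all genes. The 3 fibronectin samples lay above the 3 control samples for every mitotic gene, an arrangement that 21.3% of all genes showed.

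On Geltrex™, 54 of 54 mitotic genes were called higher, against 16.4% of all genes tested. Their median log2 fold change was 1.47, a 2.77-fold rise, with values from 0.40 for *Smc4* to 2.20 for *Mybl2* and a median of −0.01 over all genes. At least 2-fold rises were found for 49 genes, against 4.15% of all genes. All 3 Geltrex™ samples lay above all 3 control samples for each of the 54 genes, which 25.3% of all genes did. The comparisons with uncoated plates share their 3 control samples and are therefore not independent of each other.

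**Figure D1:**
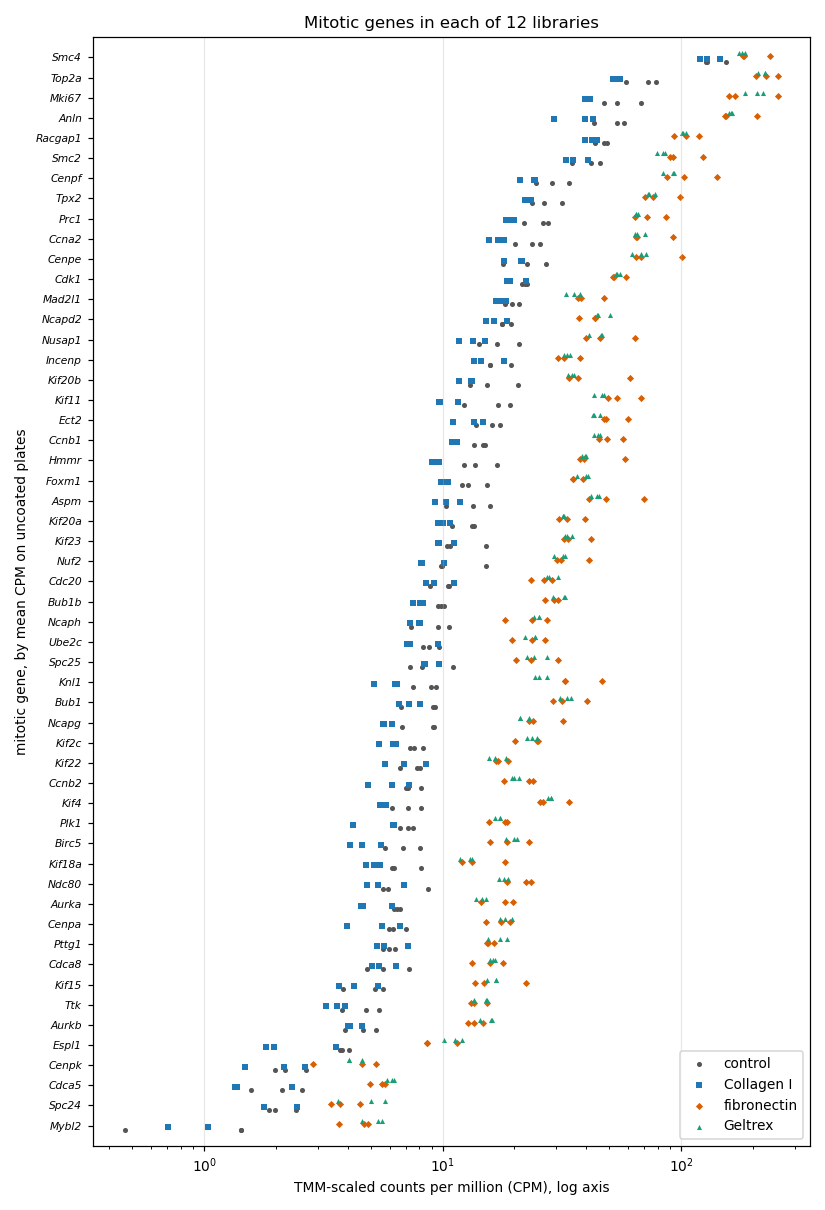
TMM-scaled CPM (log axis) of each of the 54 mitotic genes in the 12 libraries, ordered by their mean on uncoated plates, with 1 point per library and a colour and symbol per group. The fibronectin and Geltrex™ points lie to the right of the control points for every gene, and the Collagen I points lie near or to the left of them.

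Summed over the 54 genes, the libraries held 843, 946, and 1044 CPM without coating, 761, 777, and 817 with Collagen I, 2317, 3090, and 2436 with fibronectin, and 2359, 2488, and 2452 with Geltrex™. The ratio of the group means was 2.77 for fibronectin over control, 2.58 for Geltrex™ over control, and 0.831 for Collagen I over control. Total counts per library ranged from 22520404 to 27351766, and the lowest count of any mitotic gene in any library was 11, for *Mybl2*, so counting error is wide for that gene and small for most others. The second fibronectin library was the highest of its group for 41 of the 54 genes, against 36.6% of all genes tested. It lay above the mean of the other 2 fibronectin libraries by a median of 0.33 on the log2 scale. Without it, 53 genes remained higher on fibronectin than on uncoated plates, with a median log2 fold change of 1.43. The gene that was lost was *Cenpk*, with a log2 fold change of 0.71 and an adjusted p of 0.0539. The 3 Geltrex™ libraries differed from each other less than the samples of any other group did, although by more than sampling noise.

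The labelled cell type was checked against 18 myotube markers, of which 17 passed the filter on low counts. They were expressed in every group, with summed levels of 12393 to 13739 CPM without coating, 12897 to 13915 with Collagen I, 3959 to 4507 with fibronectin, and 5673 to 6150 with Geltrex™. All 17 were called lower on fibronectin than on uncoated plates and all 17 were called lower on Geltrex™, where 14.7% and 16.6% of all genes were lower. On Collagen I, edgeR called none, with 2 of the 17 at an unadjusted p under 0.05, against 14.8% of all genes. The mitotic genes and the myotube markers therefore moved in opposite directions in the same libraries, and the part of the culture's degree of differentiation in the mitotic values was not tested. Markers of macrophages and leukocytes summed to 1.10 to 2.23 CPM over all 12 libraries, and the F4/80 gene *Adgre1* had no count in any of them.

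**Figure D2:**
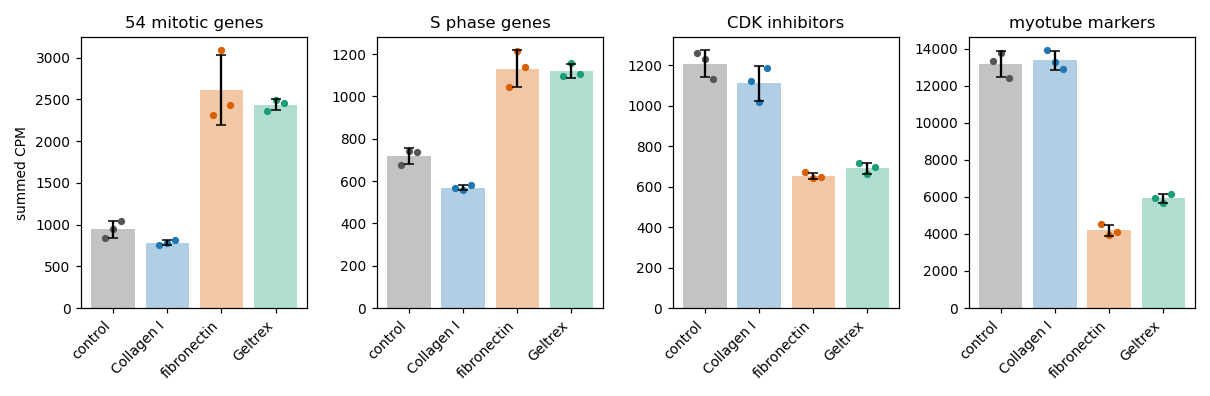
Summed CPM per library (points), with the group mean (bars from 0) and the SD of 3 samples (error bars), for the 54 mitotic genes, S phase genes, CDK inhibitors, and myotube markers. Mitotic and S phase sums are higher on fibronectin and Geltrex™ than on uncoated and Collagen I plates, and the sums of CDK inhibitors, mostly *Cdkn1a*, and of myotube markers are lower.

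Among the engines of mitotic entry, *Cdk1*, the kinase itself, was at 21.5, 22.2, and 22.7 CPM without coating, 18.7, 19.2, and 22.4 over Collagen I, 51.9, 52.1, and 58.6 over fibronectin, and 53.3, 55.7, and 53.97 over Geltrex™. The fibronectin and Geltrex™ samples overlapped each other and lay well above the other 6. The log2 fold change against control was 1.29 ± 0.09 (SE) on fibronectin, with an adjusted p of 3.59e-08, and 1.30 ± 0.09 on Geltrex™, with an adjusted p of 2.28e-08. *Ccnb1*, which encodes cyclin B1, the main partner of CDK1 at entry, was at 13.5, 15.1, and 14.7 CPM in the control samples, 11.5, 11.5, and 10.9 with Collagen I, 48.8, 57.3, and 45.4 with fibronectin, and 42.97, 44.7, and 45.9 with Geltrex™. Each Collagen I sample was below each control sample, and each fibronectin and Geltrex™ sample was above them. Its log2 fold change was 1.80 ± 0.09 on fibronectin (adjusted p = 4.14e-09) and 1.62 ± 0.09 on Geltrex™ (adjusted p = 7.46e-09). Rises given below as a value ± SE are log2 fold changes against uncoated plates, with fibronectin first and Geltrex™ second where a pair is given. The second B-type cyclin, *Ccnb2*, rose by 1.54 ± 0.14 and 1.44 ± 0.14 on the log2 scale on fibronectin and Geltrex™. *Ccna2*, the cyclin of S and G2 phase, went from 23.2 ± 2.82 CPM (SD, n = 3) on uncoated plates to 74.3 ± 15.6 with fibronectin and 66.7 ± 3.57 with Geltrex™, with a log2 fold change of 1.68 ± 0.13 on fibronectin. For *Ccna2*, 12.5% of the exon bases lie opposite exons of *Exosc9*, and whether reads were counted by strand is not given in the sources used here.

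All 6 mitotic kinases other than CDK1, counting those of the passenger complex and the checkpoint, were higher on both surfaces. *Plk1*, which drives centrosome maturation and mitotic entry, was at 7.52, 6.64, and 7.13 CPM in the control samples, 15.7, 18.6, and 18.3 with fibronectin, and 17.5, 17.4, and 16.6 with Geltrex™, with log2 fold changes of 1.30 ± 0.13 and 1.28 ± 0.13. *Aurka*, the kinase of the spindle poles, was at 6.60, 6.27, and 6.41 CPM in the control samples, 14.5, 19.7, and 18.3 with fibronectin, and 14.7, 15.3, and 13.8 with Geltrex™. Its log2 fold changes were 1.44 ± 0.14 and 1.18 ± 0.14. Fibronectin and Geltrex™ samples overlapped for both genes, and no sample of either reached down to the control samples.

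The chromosomal passenger complex, which corrects wrong attachments and later acts at the midzone, consists of the kinase AURKB with INCENP, survivin, and borealin. *Aurkb* rose from 4.59 ± 0.675 CPM on uncoated plates to 13.7 ± 1.01 with fibronectin and 15.4 ± 0.978 with Geltrex™ (SD, n = 3). *Birc5*, the gene of survivin, was at 6.84, 5.76, and 8.07 CPM without coating, 4.59, 4.09, and 5.52 over Collagen I, 15.8, 23.03, and 18.6 over fibronectin, and 19.99, 20.6, and 18.4 over Geltrex™. The Collagen I samples of *Birc5* lay below the control samples, with a log2 fold change of −0.54 ± 0.17 that did not pass (adjusted p = 0.134). *Cdca8*, which encodes borealin, had log2 fold changes of 1.41 ± 0.15 on fibronectin and 1.46 ± 0.15 on Geltrex™. The scaffold gene *Incenp* changed least within the complex, with log2 fold changes of 0.98 ± 0.12 and 0.98 ± 0.12, and was the only 1 of the 4 below 2-fold on both surfaces.

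Spindle checkpoint genes delay anaphase until every kinetochore is attached. *Bub1*, a checkpoint kinase at the kinetochore, was at 6.68, 9.13, and 9.26 CPM in the control samples, 8.02, 7.25, and 6.56 with Collagen I, 29.1, 40.5, and 31.6 with fibronectin, and 33.2, 34.4, and 31.02 with Geltrex™. Its fibronectin and Geltrex™ samples were at least 3 times the highest control sample, and the log2 fold changes were 2.01 ± 0.14 (adjusted p = 5.24e-08) and 1.98 ± 0.14 (adjusted p = 4.92e-08). *Bub1b*, the gene of the checkpoint protein BUBR1, and *Ttk*, the gene of the kinase MPS1, rose by 1.55 ± 0.09 and 1.60 ± 0.14 on fibronectin and by 1.67 ± 0.09 and 1.66 ± 0.14 on Geltrex™. *Mad2l1*, the gene of MAD2, changed less, from 19.6 ± 1.36 CPM on uncoated plates to 40.9 ± 5.94 with fibronectin and 35.5 ± 2.39 with Geltrex™. The log2 fold changes of *Mad2l1* were 1.06 ± 0.10 and 0.86 ± 0.11.

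*Knl1* encodes the kinetochore scaffold that recruits BUB1 and is located at chr2:119047119-119105501 on the plus strand of GRCm38. It was at 7.52, 9.35, and 8.92 CPM without coating, 6.41, 6.32, and 5.18 over Collagen I, 32.7, 46.5, and 32.6 over fibronectin, and 24.4, 25.3, and 27.4 over Geltrex™. The 4 groups did not overlap for *Knl1*, in the order Collagen I, control, Geltrex™, fibronectin. The log2 fold change on fibronectin was 2.11 ± 0.14 (adjusted p = 3.87e-08), the highest of the 54 genes in that comparison, and on Geltrex™ it was 1.58 ± 0.14. *Ndc80* and *Nuf2*, which form the microtubule-binding arm of the NDC80 complex, rose by 1.67 ± 0.16 and 1.56 ± 0.16 on fibronectin, and *Spc25*, from the other end of the complex, rose by 1.49 ± 0.16. *Spc24*, its partner, was at 1.99, 2.42, and 1.87 CPM in the control samples, 3.42, 3.73, and 4.50 with fibronectin, and 5.72, 5.03, and 3.65 with Geltrex™, and its log2 fold changes were 0.89 ± 0.21 and 1.19 ± 0.21.

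At the centromere, *Cenpa*, the gene of the histone H3 variant that marks it, rose from 6.41 ± 0.558 CPM to 17.3 ± 2.03 with fibronectin and 18.4 ± 1.004 with Geltrex™. *Cenpf*, a large outer kinetochore protein of G2 and M phase, was at 24.5, 28.8, and 34.1 CPM in the control samples, 24.4, 24.2, and 21.2 with Collagen I, 103, 142, and 87.6 with fibronectin, and 84.02, 92.8, and 93.4 with Geltrex™. The second fibronectin sample stood above the other 2 for *Cenpf*, and the log2 fold changes were 1.93 ± 0.15 and 1.63 ± 0.15. *Cenpk*, a member of the constitutive centromere network, changed less, with log2 fold changes of 0.89 ± 0.24 (adjusted p = 0.00971) and 0.90 ± 0.24 (adjusted p = 0.00883). It had the highest adjusted p of the 54 genes on fibronectin.

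The 10 kinesins, motor proteins that move or shorten microtubules, all rose on both surfaces. *Kif4*, the chromokinesin of chromosome arms and midzone, was at 6.12, 7.15, and 8.15 CPM without coating, 5.46, 5.69, and 5.78 over Collagen I, 26.3, 33.8, and 25.7 over fibronectin, and 27.8, 28.4, and 28.5 over Geltrex™. Its log2 fold changes of 2.002 ± 0.12 and 1.98 ± 0.12 were among the highest of all 54 genes, and 15.1% of its exon bases lie opposite exons of *Pdzd11*. *Kif11*, which encodes the EG5 motor that pushes the spindle poles apart (GRCm38, chr19:37376403-37421859, plus strand), was at 12.3, 19.2, and 17.1 CPM in the control samples, 9.75, 11.6, and 9.66 with Collagen I, 53.7, 68.1, and 49.4 with fibronectin, and 43.1, 47.5, and 46.6 with Geltrex™. The 4 groups of *Kif11* samples did not overlap, and its log2 fold changes were 1.81 ± 0.15 and 1.49 ± 0.15. *Cenpe*, the kinesin that carries chromosomes to the spindle equator, rose by 1.79 ± 0.16 on fibronectin and 1.58 ± 0.16 on Geltrex™. *Kif2c*, the microtubule depolymerase MCAK, rose by 1.59 ± 0.11 and 1.62 ± 0.11. *Kif18a*, which dampens chromosome movement at the plate, showed the smallest rise of the kinesins, at 1.09 ± 0.15 and 0.90 ± 0.16.

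Among spindle assembly factors, *Tpx2*, which activates Aurora A and nucleates microtubules near chromosomes, was at 23.7, 26.6, and 31.7 CPM without coating, 23.5, 22.8, and 22.1 over Collagen I, 70.9, 99.1, and 76.04 over fibronectin, and 73.4, 78.1, and 72.6 over Geltrex™. *Aspm*, a protein of the spindle poles, rose by 2.01 ± 0.18 on fibronectin and 1.73 ± 0.18 on Geltrex™. *Hmmr*, which acts with TPX2 at the spindle, rose by 1.66 ± 0.15 and 1.46 ± 0.15, from 14.3 ± 2.35 CPM to 45.2 ± 11.4 CPM and 39.3 ± 0.690 CPM. The bundling protein gene *Nusap1* had log2 fold changes of 1.53 ± 0.16 and 1.37 ± 0.16. In all of these, the second fibronectin library was the highest of its group, and all 3 fibronectin samples remained above the control samples.

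The 7 midzone and cytokinesis genes were called higher on both surfaces. *Anln*, the anillin scaffold of the contractile ring, was at 43.4, 57.8, and 53.8 CPM in the control samples, 39.6, 42.9, and 29.4 with Collagen I, 155, 209, and 153 with fibronectin, and 159, 163, and 161 with Geltrex™. *Prc1*, which bundles the antiparallel microtubules of the midzone, rose by 1.55 ± 0.11 and 1.36 ± 0.11, and *Kif20a*, a kinesin of the same structure, rose by 1.45 ± 0.11 and 1.35 ± 0.11. For *Kif20a*, 29.3% of the exon bases lie opposite exons of *Cdc23*, the largest such share among the 54 genes. In all, 6 of the 54 genes had a share of at least 10%. They include *Ube2c* (22.8%, opposite *Tnnc2*), *Ncapg* (13.4%, opposite *Lcorl*), and *Prc1* (11.1%, opposite *Rccd1*). *Racgap1*, part of the centralspindlin complex, changed less, from 46.7 ± 2.79 CPM to 106 ± 12.7 CPM and 103 ± 1.94 CPM, with log2 fold changes of 1.18 ± 0.09 and 1.13 ± 0.09. *Ect2*, the exchange factor that centralspindlin brings to the cortex to start furrowing, rose by 1.72 ± 0.12 and 1.47 ± 0.12.

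Genes of anaphase onset rose to a like extent. *Cdc20*, the activator of the anaphase-promoting complex, was at 10.5, 10.6, and 8.83 CPM without coating, 9.23, 8.51, and 11.1 over Collagen I, 23.5, 26.6, and 28.9 over fibronectin, and 28.02, 30.4, and 27.5 over Geltrex™. *Ube2c*, the ubiquitin-conjugating enzyme of that complex, rose by 1.40 ± 0.13 and 1.42 ± 0.13, and *Pttg1*, which encodes securin, the inhibitor that is destroyed at anaphase, rose by 1.39 ± 0.12 and 1.52 ± 0.12. *Espl1*, the gene of separase, which cuts cohesin, was at 4.06, 3.71, and 3.78 CPM in the control samples, 1.82, 1.97, and 3.58 with Collagen I, 8.62, 8.58, and 11.5 with fibronectin, and 12.1, 11.3, and 10.1 with Geltrex™. The third Collagen I sample of *Espl1* was close to the control samples and the other 2 were lower. *Cdca5*, the gene of sororin, which protects cohesion until anaphase, rose by 1.37 ± 0.21 and 1.53 ± 0.21.

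Condensin and topoisomerase genes, whose products compact and untangle chromosomes, included the gene with the smallest change. *Top2a* was at 58.5, 72.9, and 78.2 CPM without coating, 51.7, 54.2, and 55.7 over Collagen I, 207, 254, and 228 over fibronectin, and 211, 224, and 226 over Geltrex™, with log2 fold changes of 1.71 ± 0.10 and 1.66 ± 0.10. *Smc4*, a core condensin subunit (GRCm38, chr3:69004738-69034623, plus strand), was at 128, 128, and 155 CPM in the control samples, 120, 129, and 146 with Collagen I, 183, 237, and 185 with fibronectin, and 175, 180, and 186 with Geltrex™. Its fibronectin and Geltrex™ samples lay above the other 6, and the log2 fold changes were 0.56 ± 0.11 (adjusted p = 0.00124) and 0.40 ± 0.11 (adjusted p = 0.0112), the lowest of the 54 genes on both surfaces. Its partner *Smc2* rose by 1.32 ± 0.13 and 1.02 ± 0.13, and the condensin I subunits *Ncapg*, *Ncaph*, and *Ncapd2* rose by 1.66 ± 0.14, 1.33 ± 0.15, and 1.18 ± 0.10 on fibronectin. *Mki67*, the Ki-67 coat protein of mitotic chromosomes used as a marker of cycling cells, was at 47.4, 53.9, and 68.3 CPM without coating, 41.7, 39.7, and 40.97 over Collagen I, 159, 254, and 168 over fibronectin, and 186, 208, and 222 over Geltrex™. The spread of *Mki67* was wide on fibronectin, and its log2 fold changes were 1.78 ± 0.16 and 1.86 ± 0.16.

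Both transcription factors of the list, which drive the G2 and M phase programme with the MuvB core, rose as well. *Foxm1* was at 12.8, 15.3, and 12.02 CPM in the control samples, 10.2, 9.88, and 10.6 with Collagen I, 35.2, 38.7, and 35.4 with fibronectin, and 40.1, 40.8, and 36.7 with Geltrex™, with log2 fold changes of 1.44 ± 0.10 (adjusted p = 3.87e-08) and 1.55 ± 0.10 (adjusted p = 1.34e-08). *Mybl2*, the gene of B-MYB (GRCm38, chr2:163054687-163084688, plus strand), was the least abundant of the 54 genes, at 1.43, 1.43, and 0.467 CPM without coating, 1.04, 0.706, and 1.04 over Collagen I, 3.68, 4.69, and 4.85 over fibronectin, and 5.55, 4.61, and 5.37 over Geltrex™. Its log2 fold change on Geltrex™, 2.20 ± 0.28 (adjusted p = 1.62e-05), was the highest of the 54 and carried the widest error. On fibronectin it was 1.96 ± 0.28. Leaving out the third control library, the lowest of its group for *Mybl2*, moved its log2 fold change by 0.35 on either surface. No other gene of the 54 moved more under any alternative, so its place as the highest on Geltrex™ is uncertain.

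**Figure D3:**
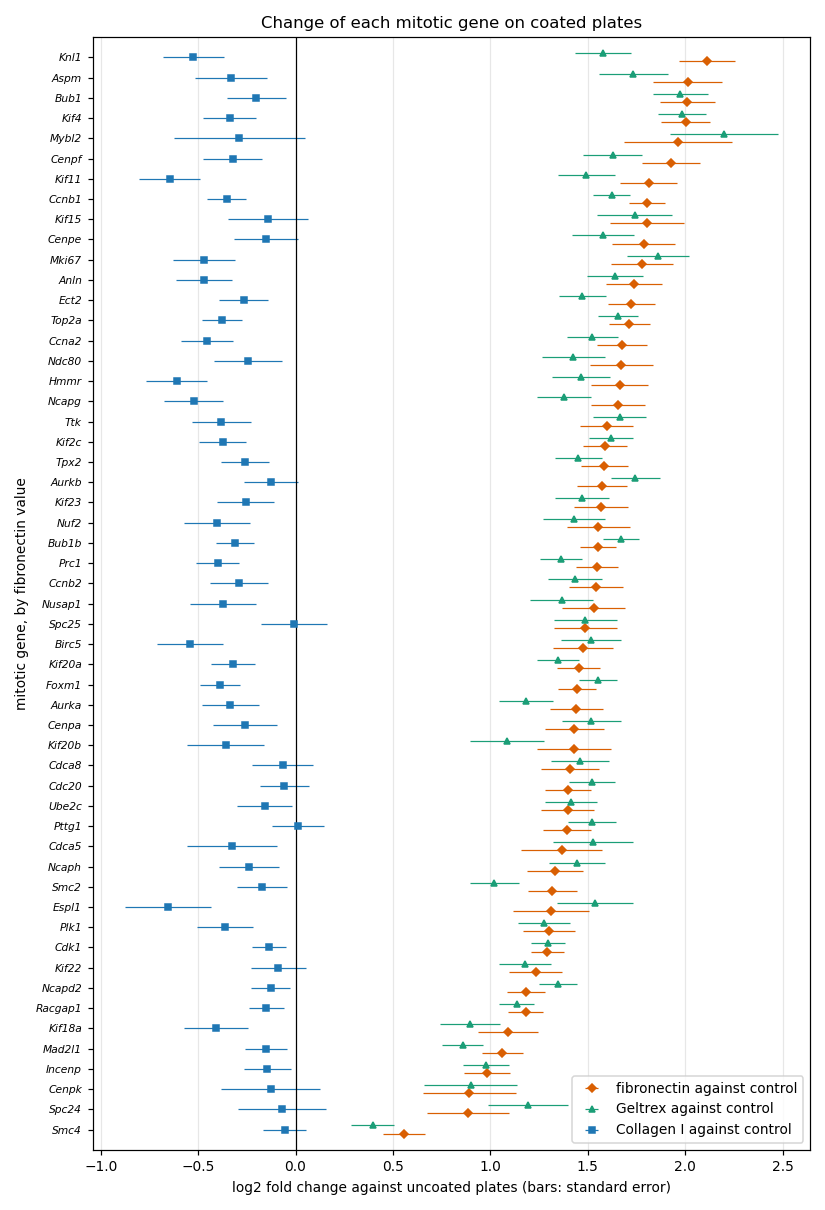
Log2 fold change against uncoated plates with its standard error for each of the 54 mitotic genes, ordered by the fibronectin value, with 1 symbol per coating. Fibronectin and Geltrex™ values lie between 0.40 and 2.20, and Collagen I values lie between −0.65 and 0.01.

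Per kilobase of exon, the level on uncoated plates ranged from 0.240 ± 0.120 CPM per kb for *Mybl2* to 26.3 ± 3.004 CPM per kb for *Smc4* (SD, n = 3). *Top2a* was next below *Smc4* at 7.76 ± 1.13 CPM per kb, followed by *Smc2* at 7.48 ± 1.01 CPM per kb, which did not differ from *Top2a* beyond the spread. On fibronectin, the gap between *Smc4* and *Top2a* narrowed to 38.7 ± 5.86 against 25.4 ± 2.64 CPM per kb. *Smc4* had the highest level per kilobase on uncoated plates and the smallest rise, and a link between level and rise was not tested. Over the 54 genes, Pearson's r of the log2 fold change against log2 mean CPM was 0.12 on fibronectin and −0.13 on Geltrex™.

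On Collagen I, 53 of the 54 genes had a negative log2 fold change against uncoated plates, where 50.7% of all genes did, but none was called by edgeR. The median was −0.30, with values from −0.65 for *Espl1* and *Kif11* to 0.01 for *Pttg1*, and the lowest adjusted p was 0.0577, for *Kif11*. All 3 Collagen I samples lay below all 3 control samples for 22 of the 54 genes, against 9.15% of all genes tested. With no adjustment, 23 of the 54 had a p under 0.05 and all 23 were lower, which held for 8.32% of all genes. Of all genes tested, 0.917% were called lower. *Kif11* fell short of the threshold with means of 16.2 ± 3.53 CPM in the control samples and 10.3 ± 1.11 with Collagen I (SD, n = 3), a log2 difference of −0.65 ± 0.16. *Hmmr* followed, at 12.3, 13.6, and 16.9 CPM without coating and 9.27, 9.70, and 9.01 with Collagen I, with a log2 fold change of −0.61 ± 0.16 (adjusted p = 0.0703). The Collagen I samples of *Hmmr* were close together and below every control sample.

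The Collagen I difference depended on the tool and on the libraries. DESeq2 called 8 genes lower, namely *Ccna2*, *Knl1*, *Kif11*, *Prc1*, *Ncapg*, *Top2a*, *Foxm1*, and *Hmmr*, and edgeR without a filter on low counts called 11 lower. Over all genes, calls in either direction rose as well, from 162 to 485 with DESeq2 and to 581 without the filter. Counts over all genes are not given here for the fits below that leave out 1 library. The first control library was the lowest of its group for 33 of the 54 genes, and without it edgeR called 4 genes lower, namely *Kif11*, *Prc1*, *Ncapg*, and *Top2a*. Leaving out the second fibronectin library, which enters this comparison only through the shared scaling, filter, and estimate of spread, gave 5, and leaving out the third gave 1. Without the third Collagen I library the log2 fold change of *Espl1* went to −1.02 (adjusted p = 0.0190) and it was the only 1 called.

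Collagen I also stood apart from both other coatings. All 54 genes were called lower on Collagen I than on fibronectin, against 22.9% of all genes tested, and 52 were at least 2-fold lower, against 3.6% of all genes. The median log2 fold change was −1.84, with values from −2.64 for *Knl1* to −0.61 for *Smc4*, and the samples did not overlap for any of the 54 genes, against 25.6% of all genes below. Against Geltrex™, all 54 were called lower as well, where 19% of all genes were, and 53 were at least 2-fold lower, where 4.56% of all genes were. The median was −1.74, with values from −2.49 for *Mybl2* to −0.45 for *Smc4*. All 54 lay below in every sample, against 27.6% of all genes. *Kif11* showed log2 fold changes of −2.46 ± 0.15 against fibronectin and −2.14 ± 0.15 against Geltrex™, and *Mki67* of −2.25 ± 0.16 and −2.33 ± 0.16.

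Between fibronectin and Geltrex™, the log2 differences of the 54 genes ran from −0.31 for *Spc24* to 0.53 for *Knl1*. *Knl1* was the only 1 of the 54 called between them, higher on fibronectin by 0.53 ± 0.13 on the log2 scale (adjusted p = 0.00994), and none was called lower. Among all genes tested, 10.3% were called higher and 9.06% lower. At an unadjusted p under 0.05, 4 of the 54 were higher and none lower, against 16.9% and 16.1% of all genes. The median log2 difference of the 54 genes was 0.06, with 5 genes above in every sample, against 21.5% of all genes. Those 5 were *Knl1*, *Kif11*, *Ect2*, *Smc2*, and *Ncapg*, and 2 genes, *Cdca5* and *Ncapd2*, were below in every sample, against 21.2% of all genes. The call for *Knl1* was lost without the second fibronectin library, where its log2 difference was 0.34 (adjusted p = 0.0558), without the first Geltrex™ library, where it was 0.50 (adjusted p = 0.0563), and with the 3 Geltrex™ samples summed into 1 (0.54, adjusted p = 0.196). For *Cdk1*, the log2 difference was −0.003 ± 0.08, and for *Foxm1* it was −0.11 ± 0.09.

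Over the 54 genes, the log2 difference between fibronectin and Geltrex™ went with exon length, with Pearson's r = 0.43 and Spearman's rho = 0.43 against the logarithm of length, as a description over genes that share the same libraries. It went with the level as well, with r = 0.45 and rho = 0.49 against log2 mean CPM. The second fibronectin library was compared with the mean of the other 2 fibronectin libraries. Its median log2 excess was 0.40 for the 29 genes with over 5 kb of exon and 0.23 for the 25 shorter genes. Over all genes tested, the same medians were 0.057 and −0.046. The part of this library in the difference was not tested. Some long genes went the other way, among them *Espl1*, with 8749 bases of exon, at −0.22 ± 0.18, and *Mki67*, with 10061 bases, at −0.08. *Ncapd2*, with 6267 bases, was lower on fibronectin in every sample.

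**Figure D4:**
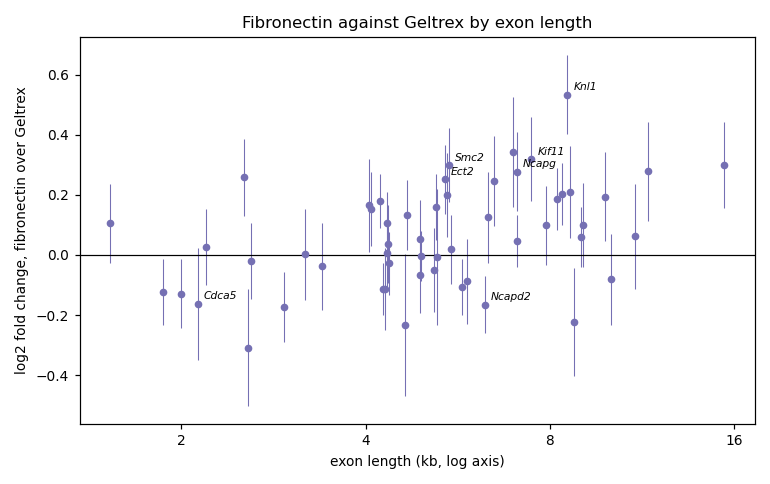
Log2 fold change of fibronectin over Geltrex™ with its standard error against exon length (log axis) for the 54 mitotic genes, with names at genes whose 3 samples of each group do not overlap. Values scatter around 0, and the highest, *Knl1* at 0.53, is a gene with over 8 kb of exon.

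Because the 54 genes moved together, their promoters were read for 2 motifs known from G2 and M phase genes. The cell cycle genes homology region (CHR), TTTGAA or TTCGAA on either strand (TTTGAA reads TTCAAA on the other), is bound by the MuvB core, and the CCAAT box, CCAAT or ATTGG, is bound by NF-Y. RefSeq promoter windows of GRCm38.p6, from 250 bases before to 50 after the transcription start, were found for 46 of the 54 genes. No window was found for *Kif20a*, *Ccna2*, *Smc4*, *Spc24*, *Foxm1*, *Tpx2*, *Incenp*, and *Aurkb*. The CHR was present in 35 of the 46 genes (76.1%), against 21.7% of the 27025 genes with a window, and the CCAAT box was present in 31 (67.4%), against 41.1%. Both were present in 28 (60.9%), against 8.61%. Of the further mitotic genes examined below that had a window, 58.3% had a CHR and 68.3% a CCAAT box. Of the S phase genes with a window, 25.9% had a CHR and 70.4% a CCAAT box. The share with a CCAAT box was therefore not particular to the 54 genes. A match gives letters in a window and does not show binding.

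The 7 stretches below are the last 150 bases before the start in 7 genes with the roles described above, and they show the usual layout and its exceptions. They are written 5′ to 3′ along the strand of the gene, and capitals mark CHR and CCAAT matches on either strand.
*Cdk1*, chr10:69352913-69353062, minus strand: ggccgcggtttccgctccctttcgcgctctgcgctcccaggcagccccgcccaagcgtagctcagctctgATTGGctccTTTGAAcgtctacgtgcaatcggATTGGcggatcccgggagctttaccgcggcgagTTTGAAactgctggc
*Ccnb1*, chr13:100786487-100786636, minus strand: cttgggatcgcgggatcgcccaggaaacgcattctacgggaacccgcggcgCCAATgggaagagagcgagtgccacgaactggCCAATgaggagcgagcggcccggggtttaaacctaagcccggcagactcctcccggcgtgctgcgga
*Cdc20*, chr4:118437344-118437493, minus strand: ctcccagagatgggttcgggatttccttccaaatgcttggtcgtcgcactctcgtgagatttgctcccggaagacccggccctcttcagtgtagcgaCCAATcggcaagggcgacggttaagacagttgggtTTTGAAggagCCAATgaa
*Ube2c*, chr2:164769779-164769928, plus strand: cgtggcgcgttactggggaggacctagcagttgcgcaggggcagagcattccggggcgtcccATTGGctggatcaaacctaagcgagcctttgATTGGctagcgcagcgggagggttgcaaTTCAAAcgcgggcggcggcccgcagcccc
*Kif11*, chr19:37376232-37376381, plus strand: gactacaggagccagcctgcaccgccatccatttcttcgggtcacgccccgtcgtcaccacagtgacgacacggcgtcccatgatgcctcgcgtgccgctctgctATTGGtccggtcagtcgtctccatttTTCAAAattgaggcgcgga
*Top2a*, chr11:99024190-99024339, minus strand: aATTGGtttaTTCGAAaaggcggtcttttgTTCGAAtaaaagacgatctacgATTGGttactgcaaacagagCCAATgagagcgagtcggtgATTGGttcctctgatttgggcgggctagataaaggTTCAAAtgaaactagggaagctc
*Mki67*, chr7:135716380-135716529, minus strand: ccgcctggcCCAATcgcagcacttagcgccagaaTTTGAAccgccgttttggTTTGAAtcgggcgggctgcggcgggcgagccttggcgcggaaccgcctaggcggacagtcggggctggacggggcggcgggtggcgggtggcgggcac

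In *Cdk1*, CHR matches begin 71 and 15 bases before the start and CCAAT boxes begin 80 and 48 bases before it. *Cdc20*, *Kif11*, and *Top2a* have a CHR that begins 18, 19, and 23 bases before the start, and *Ube2c* has one at 29. *Ccnb1* has a pair of CCAAT boxes at 99 and 67 bases and no CHR in the window, and *Mki67* has CHR matches only farther out, at 116 and 98 bases, within the stretch shown. In 32 of the 35 genes with a CHR (91.4%), a match lay between 40 bases before the start and the end of the window, against 25.3% of all genes with a CHR, a boundary that was set after the positions were seen. Pairs of CCAAT boxes in the same orientation with a spacing of 31 to 34 bases, also chosen after they were seen, were found in *Cdk1*, *Ccnb1*, *Ccnb2*, *Aurka*, *Spc25*, *Cdca8*, *Ube2c*, and *Hmmr*. These 8 genes make up 17.4% of the 46, against 1.04% of all genes.

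**Figure D5:**
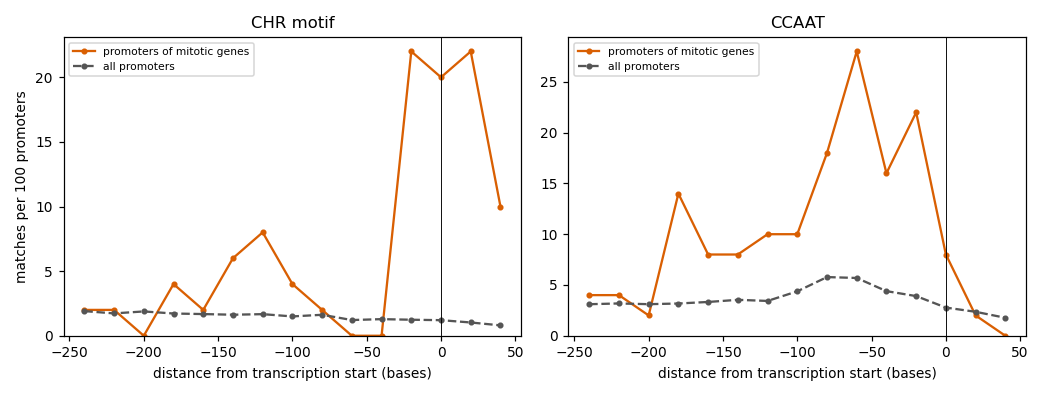
Matches of the CHR motif and of CCAAT per 100 promoter windows in bins of 20 bases, by distance from the transcription start, for the 50 windows of mitotic genes and for all 32851 windows. CHR matches of mitotic genes reach 22 per 100 windows in the bin from 30 to 10 bases before the start, where all windows have 1.24, and CCAAT matches peak at 28 per 100 between 70 and 50 bases before it.

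The rise differed little by motif. On fibronectin, the median log2 fold change was 1.55 for the 35 mitotic genes with a CHR and 1.48 for the 11 without, and on Geltrex™ it was 1.49 and 1.44. *Mybl2*, *Birc5*, *Nuf2*, *Nusap1*, *Mad2l1*, *Kif18a*, *Pttg1*, and *Ncaph* had neither motif in the window and were called higher on both surfaces. *Knl1* has a CHR and no CCAAT box.

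The genes whose products read these motifs were examined next. Of 12 genes of the MuvB core, its E2F partners, and the pocket proteins, 5 were called higher on fibronectin and 2 higher and 1 lower on Geltrex™, where 17.1% of all genes were higher on fibronectin and 16.4% higher and 16.6% lower on Geltrex™. The number higher on Geltrex™ is near that background, and under the alternatives the fibronectin count went from 3 to 5. *Rbl1*, the gene of the pocket protein p107, was at 12.2, 17.4, and 17.4 CPM in the control samples, 31.2, 37.01, and 30.8 with fibronectin, and 33.7, 33.4, and 34.8 with Geltrex™, with log2 fold changes of 1.08 ± 0.13 (adjusted p = 1.85e-05) and 1.12 ± 0.13 (adjusted p = 9.47e-06). *Lin9*, a MuvB subunit, rose by 0.68 ± 0.14 and 0.63 ± 0.14, while *Lin37*, the subunit needed for repression, fell on Geltrex™, from 8.70 ± 1.04 CPM to 5.24 ± 0.0996 CPM (log2 fold change −0.73 ± 0.12). *E2f4*, a repressor E2F of DREAM, and *Rb1*, the retinoblastoma gene, did not pass on either surface, with log2 values of −0.20 ± 0.09 and −0.31 ± 0.13 on fibronectin. None of the 3 NF-Y subunit genes passed edgeR's test on either surface, with 1 on fibronectin and 0 on Geltrex™ at an unadjusted p under 0.05, and their log2 values on fibronectin ran from −0.13 to 0.21.

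Among the 5 CDK inhibitors tested, *Cdkn1a*, the gene of p21, which rises when myoblasts leave the cycle, fell from 1093, 1051, and 944 CPM on uncoated plates to 479, 448, and 450 CPM on fibronectin and 586, 532, and 568 CPM on Geltrex™. The log2 fold changes were −1.16 ± 0.09 (adjusted p = 1.47e-07) and −0.87 ± 0.09 (adjusted p = 1.96e-06), and no fibronectin or Geltrex™ sample overlapped the control samples. *Cdkn1b*, the gene of p27, fell on Geltrex™ (−0.71 ± 0.08, adjusted p = 3.64e-06) and did not pass on fibronectin (0.07 ± 0.08). *Cdkn2c* rose by 0.32 ± 0.09 and 0.29 ± 0.09. In all, 2 of the 5 were called higher and 1 lower on fibronectin, and 1 higher and 2 lower on Geltrex™. Of all genes, 17.1% were higher and 14.7% lower on fibronectin, and 16.4% and 16.6% on Geltrex™. The calls of *Cdkn2d* on fibronectin and of *Cdkn2c* on Geltrex™ were lost under at least 1 alternative. Their sum, most of which is *Cdkn1a*, was 1208 ± 67.7 CPM without coating, 1111 ± 85.7 with Collagen I, 654 ± 15.8 with fibronectin, and 692 ± 27.2 with Geltrex™ (SD, n = 3).

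Other genes of the same phases were examined beside the 54. Of 71 further mitotic genes tested, 57 were called higher and 1 lower on fibronectin, with a median log2 fold change of 1.13, and 54 higher and 1 lower on Geltrex™, with a median of 1.22. *Stil*, a centriole assembly gene, rose most on both, by 1.90 ± 0.21 and 2.20 ± 0.20, and the genes called lower were *Cenpx* on fibronectin (−0.75 ± 0.21) and *Mis12* on Geltrex™ (−0.27 ± 0.08). Neither of these lower calls held under every alternative. In edgeR, the adjusted p was 0.0689 for *Cenpx* without the first control library and 0.0718 for *Mis12* with no filter on low counts. Of 33 S phase genes, 27 were called higher on fibronectin and 28 on Geltrex™, none lower, with medians of 0.80 and 0.94. *E2f7* rose by 2.08 ± 0.16 and 2.09 ± 0.16 and *Cdc6*, a licensing factor, by 1.64 ± 0.25 and 2.09 ± 0.25, whereas *Rrm2*, a subunit of ribonucleotide reductase, did not pass on either (0.23 ± 0.09 and 0.10 ± 0.09). Of 27 genes of the anaphase-promoting complex, cohesin, and their regulators, many of which are needed outside mitosis too, 8 were higher and 2 lower on fibronectin, with a median of 0.18, where 17.1% and 14.7% of all genes were. On Geltrex™, 6 were higher and 2 lower, with a median of 0.14, where 16.4% and 16.6% of all genes were. Under the alternatives, the number higher ran from 2 to 11 on fibronectin and from 2 to 9 on Geltrex™. The largest rises were those of 2 regulators that are not subunits, the cohesin acetyltransferase gene *Esco2*, at 1.80 ± 0.17 on fibronectin, and *Fbxo5*, the gene of the inhibitor EMI1, at 1.44 ± 0.15.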

How the data were processed

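RNA-seq of 12 samples was analysed. Per the labels, reads were trimmed (Trimmomatic), aligned (HISAT2), and assigned to genes (featureCounts), and the authors deposited the resulting counts without normalization. The genome build, annotation, and strand setting are not given in the sources used here. Gene names, positions, and exon lengths came from GENCODE M21 (GRCm38), which holds all 55536 identifiers.

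Genes were kept by edgeR's filterByExpr (minimum count 10, minimum total 15), which left 14499. One edgeR 4.0.16 quasi-likelihood model in R 4.3.3 with TMM scaling covered all 12 samples in 4 groups (8 residual degrees of freedom) and all 6 comparisons, with Benjamini-Hochberg adjustment over all genes tested. Groups came from the sample names. Standard errors are the log2 fold change divided by the root of F. CPM are TMM-scaled. Total counts of 22520404 to 27351766 per sample set the precision. The sources used here name no molecular identifiers, so reads can share a molecule.

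The mitotic genes and all lists were chosen with earlier results of these data known. Any of the 54 genes may be named, with full statistics for those that stand for a role and for the extremes of each comparison, and up to 3 of the highest and 3 of the lowest log2 fold changes of each other list are named. DESeq2 1.42.0, RLE normalization, 2 other filters, fits with only the groups compared, a replicate block, a 2-fold minimum, each sample left out, and summed Geltrex™ samples were tried. The procedure was tested on simulated data for fibronectin against control. Both tools recovered 73% of genes with a simulated log2 change of 1 and 87% of those at 1.5. Of the genes called, 7 of 167 were false with edgeR and 19 of 179 with DESeq2. Promoter windows were taken from RefSeq (GRCm38.p6), and bases from 10 to 30 after the start were found in transcripts on the stated strand for 34 of 46 genes and reversed for 0.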

Additional observations from a re-analysis of the deposited data

How the results depend on the processing

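The number of mitotic genes called was 54 in each of the 4 comparisons of fibronectin or Geltrex™ with uncoated plates or Collagen I under RLE normalization, DESeq2, no filter on low counts, at least 10 counts in every sample, only the groups compared, and the replicate block. Summing the 3 Geltrex™ samples into 1, an alternative chosen after seeing the data, leaves that group without a spread of its own. There the calls of *Cenpk* and *Smc4* against control were lost, at log2 fold changes of 0.91 and 0.41. The call of *Smc4* between Collagen I and Geltrex™ was lost as well, at −0.46 for Collagen I over Geltrex™. Leaving out 1 sample gave 53 to 54 for fibronectin against control and 54 in the other 3. For Collagen I against control, which had 0 calls, DESeq2 gave 8, no filter on low counts gave 11, the replicate block gave 1 (*Kif11*, adjusted p = 0.0158), and leaving out 1 sample gave 0 to 5. In that comparison, calls over all genes were 162 in the main fit, 485 with DESeq2, 581 with no filter, and 163 with the block. For fibronectin against Geltrex™, which had 1 call, no filter gave 5, a fold change of at least 2 gave 0, and leaving out 1 sample gave 0 to 3. With the 3 Geltrex™ samples summed, the call of *Knl1* was lost. Calls over all genes in that comparison were 2805 in the main fit, 3122 with no filter, and 577 with the 2-fold minimum. The cause of these changes was not tested.

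The sign of 3 small log2 fold changes on Collagen I, none of them called, changed. *Spc25* was at 0.00096 with only the 2 groups compared and at −0.12 to 0.18 without 1 sample, *Smc4* was at −0.15 to 0.042, and *Pttg1* was at −0.13 to 0.10. Median log2 fold changes of the 54 genes moved by less than 0.12, the spread between replicates, under every alternative run, except for Collagen I against fibronectin without the second fibronectin sample, where the median went from −1.84 to −1.71.

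Samples of the same number did not deviate together, with correlations of −0.15 to 0.23 in the 18 pairs and 3 above 0.1, so the numbers were not taken as pairs. In the other lists, 22 of 130 calls on fibronectin and 27 of 126 on Geltrex™ were lost under at least 1 alternative. The block with the replicate number changed no other call among the 54 genes. Depth limited *Mybl2*, *Cenpk*, *Spc24*, and *Cdca5* most.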

Other observations

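Of 12 markers of undifferentiated myoblasts and reserve cells, 3 were called higher and 3 lower on fibronectin, with a median log2 fold change of −0.12, and 4 were higher and 2 lower on Geltrex™, with a median of 0.0017. Among all genes, 17.1% were higher and 14.7% lower on fibronectin and 16.4% and 16.6% on Geltrex™. Under the alternatives the number lower on fibronectin ran from 1 to 4 and the number higher on Geltrex™ from 2 to 5. *Vcam1*, an adhesion molecule, rose from 121 ± 11.1 CPM without coating to 161 ± 14.2 with fibronectin and 237 ± 4.23 with Geltrex™ (SD, n = 3). *Sdc4*, the syndecan gene, rose by 0.39 ± 0.08 and 0.76 ± 0.08 on the log2 scale. *Heyl*, a Notch target, was lower on Geltrex™ (log2 fold change −0.78 ± 0.13, adjusted p = 2.58e-04) and did not pass on fibronectin (−0.25 ± 0.13). *Spry1* was lower on fibronectin (−1.005 ± 0.20) and higher on Geltrex™ (0.53 ± 0.19), in cells whose mitotic genes were higher on both. The Geltrex™ call of *Spry1* was lost under several alternatives, among them at least 10 counts in every sample (edgeR, adjusted p = 0.0587).

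Fibroblast-like markers were led by *Dcn*, and their sum was 1966 to 2489 CPM without coating, 2080 to 2246 with Collagen I, 1681 to 1923 with fibronectin, and 1366 to 1412 with Geltrex™. Of 6 tested, 3 were called lower on fibronectin and 4 on Geltrex™, and none higher, against 14.7% and 16.6% of all genes lower. Under the alternatives, 1 to 3 were lower on fibronectin and 3 to 4 on Geltrex™. *Thy1* and *Tcf21* had no count. Of 5 adipocyte markers, *Pparg* was the only 1 that passed the filter on low counts, and it was called higher on fibronectin (0.57 ± 0.12, adjusted p = 0.00163) and on Geltrex™ (0.48 ± 0.12, adjusted p = 0.00546). The summed level of the 5 was 10.5 to 11.8 CPM without coating, 10.4 to 13.5 with Collagen I, 15.7 to 18.1 with fibronectin, and 15.2 to 16.01 with Geltrex™. *Adipoq*, *Plin1*, *Cidec*, and *Fabp4* averaged below 1 CPM in every group. Of 5 endothelial markers, *Tek* was the only 1 tested, and it was called lower on Geltrex™ (−1.24 ± 0.34, adjusted p = 0.0102) and did not pass on fibronectin (0.27 ± 0.30), with sums of the 5 between 0.90 and 3.53 CPM over the 12 libraries. The calls of *Pparg* and *Tek* on Geltrex™ were lost under at least 1 alternative. The part of these cell types in the mitotic values was not tested.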
